A study of Bos taurus with 8 samples.

Results

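The transcripts followed here were those of 9 genes of plasminogen activation and blood coagulation, PLAU, PLAT, PLAUR, SERPINE2, SERPINF1, SERPINA5, F3, TFPI2 and THBD, which were read by 10 of the 43794 probes of a bovine microarray. They were chosen by the gene symbol in the annotation of the array, which names 15216 genes. Each gene had 1 probe, except THBD, which had 2 and was read by the brighter one. The samples were granulosa cells scraped from dominant follicles above 9 mm of Holstein cattle, 4 in the plateau phase and 4 in the growing phase. The phase had been assigned by ranking follicles on flow cytometry of DNA content, which sets dividing and resting cells against cells that had lost DNA; plateau follicles ranked below growing ones. The ovaries came from a slaughterhouse, the reproductive status of the animals was unknown, and the RNA had been amplified before labelling. Each plateau follicle shared 2 arrays with 1 growing follicle, once in each dye, which gave 4 follicle pairs on 8 arrays. Pair numbers 1 to 4 are those of the array areas on the slides.

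Plasminogen activators are proteases that cut plasminogen, a protein of plasma and follicular fluid, into plasmin, which digests fibrin and matrix proteins and activates other proteases. Serpins trap such proteases, and the coagulation cascade runs against them by making thrombin and fibrin. In the ovary this system is known for its part in the loosening of the follicle wall before ovulation. PLAU encodes the urokinase activator, PLAT the tissue activator and PLAUR the cell surface receptor that holds urokinase at the membrane. SERPINE2 encodes protease nexin 1, which inhibits thrombin, urokinase and plasmin, SERPINA5 the protein C inhibitor, and SERPINF1 pigment epithelium-derived factor, a serpin without protease inhibition that restrains vessel growth. F3 encodes tissue factor, which starts coagulation, TFPI2 an inhibitor of plasmin and other serine proteases, and THBD thrombomodulin, which turns thrombin toward the activation of protein C.

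Median spot intensities were 186 to 285 in Cy5 and 285 to 435 in Cy3, and the local background had medians of 40 to 57 in Cy5 and 22 to 28 in Cy3. A reading was counted as above background when it exceeded, by more than 2 SD, the mean of the 757 control spots without target on its array, and each probe had 16 readings, 8 in each phase. The level of a transcript in a follicle is given as the mean of its normalized log2 intensities in both dyes. The granulosa identity of the cells was checked with 7 markers. Their mean log2 level was 12.89, 9.94, 9.15 and 12.97 in the plateau follicles of pairs 1 to 4, against 11.25, 10.80, 13.21 and 12.65 in the growing follicles. CYP19A1, the aromatase that makes oestradiol, was lowest in 3 follicles, the plateau follicles of pairs 2 and 3 at log2 levels of 8.06 and 8.80 and the growing follicle of pair 2 at 8.15, while it was at 15.39 and 15.85 in the other plateau follicles and at 11.92 to 15.74 in the other growing follicles. In cell suspensions of this kind, fewer cells of a type and less RNA per cell cannot be told apart.

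The comparison asked whether the genes of plasminogen activation and coagulation differ between plateau and growing follicles. No difference between the phases was detected for any of the 9 genes, although 3 of them (PLAT, PLAUR and TFPI2) differed by more than 4 log2 units between single follicles of the same phase. Mean log2 ratios of plateau over growing follicles were above 0 for 5 genes (PLAT, PLAU, PLAUR, SERPINA5 and THBD), as they were for 49.3% of all probes, and below 0 for 4 (TFPI2, SERPINE2, SERPINF1 and F3). The study called a transcript different when its fold change exceeded 1.5 at an unadjusted p-value under 0.05 and its mean log2 intensity was 7 or more. Of the 9 genes 0 met this criterion, where 0.674% of all probes did. Likewise 0 of 9 had an unadjusted p-value under 0.05, against 2.63% of all probes, and 0 of 43794 probes passed an adjusted p-value of 0.05 (limma, lowest adjusted p = 0.9998). None of the 9 genes went the same way in all 4 pairs, where 9.74% of all probes did, 4.75% of them higher and 5% lower in plateau follicles, and for none were the follicles of the phases free of overlap, where 1.44% of all probes were. For all 9 genes the SD among the pairs was larger than the size of the mean ratio. The 4 pairs limit the precision of these values, and the p-values measure the spread between these pairs, since the labels do not say whether the follicles came from separate animals.

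**Figure D1:**
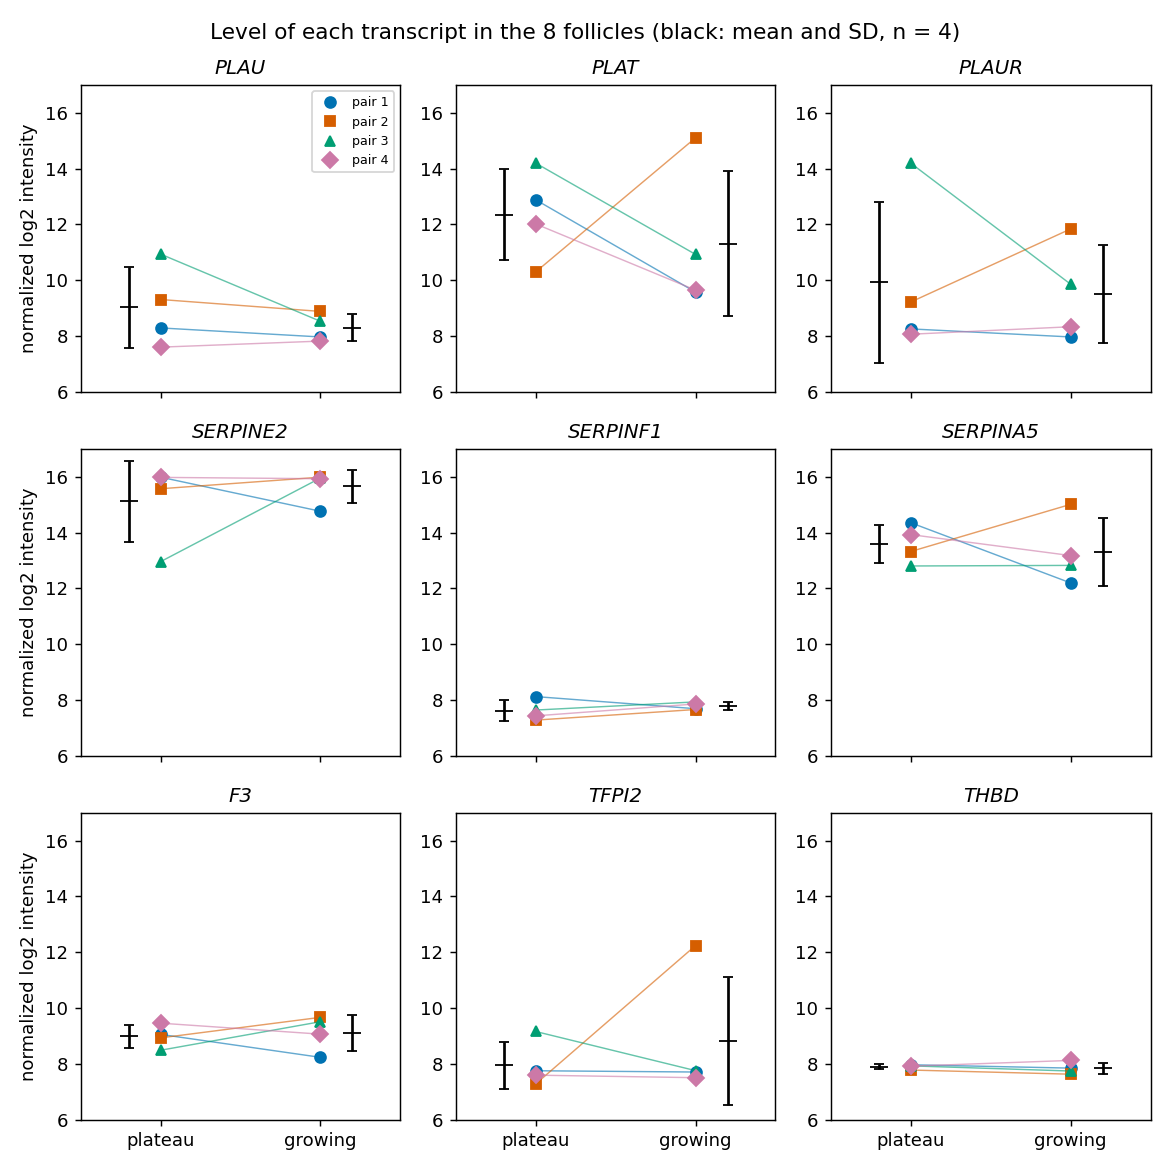
Normalized log2 intensity (vertical axis) of the 9 transcripts in the 4 plateau follicles (left in each panel) and the 4 growing follicles (right), with a line joining the follicles hybridized together and black bars for the mean and SD (n = 4). The highest PLAT and TFPI2 levels lie in the growing follicle of pair 2 (15.10 and 12.24), and the highest PLAU and PLAUR levels in the plateau follicle of pair 3 (10.94 and 14.20).

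PLAT, which encodes the tissue activator, had log2 levels of 12.89, 10.29, 14.20 and 12.02 in the plateau follicles of pairs 1 to 4, against 9.58, 15.10, 10.93 and 9.65 in the growing follicles. It was thus higher in the plateau follicle of pairs 1, 3 and 4, by 9.92-fold, 9.67-fold and 5.18-fold, and 28.0-fold lower in that of pair 2, whose growing follicle held the highest PLAT level of all. The groups overlapped, and the mean log2 ratio was 1.04 ± 3.92 (SD, n = 4 pairs) with a 95% confidence interval of -2.98 to 5.06 (limma, unadjusted p = 0.534, adjusted p = 0.9998). Its SD among pairs stood at percentile 99.95 of the 23733 probes whose mean log2 intensity reached 8, whose median SD was 0.43. The call turned on pair 2: without it, the ratio was 2.99 ± 0.53 (SD, n = 3 pairs), a 7.92-fold higher level that met the study's criterion (limma, unadjusted p = 0.000325, adjusted p = 0.998), as did 0.744% of all probes in that direction without pair 2. Without pair 1, 3 or 4 it was 0.28, 0.29 and 0.59, or 1.21-fold, 1.22-fold and 1.51-fold, and did not meet the criterion.

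PLAU, the gene of urokinase, had log2 levels of 8.29, 9.31, 10.94 and 7.60 in plateau follicles, against 7.97, 8.88, 8.53 and 7.82 in growing follicles. In pair 4 none of the readings was above background, and the plateau follicle of pair 3 stood above the rest, 5.31-fold over the growing follicle it was hybridized with. The mean log2 ratio was 0.74 ± 1.15 (SD, n = 4 pairs; 95% confidence interval -0.46 to 1.93; limma, unadjusted p = 0.172), and it was 0.18 without pair 3. PLAUR, which encodes the urokinase receptor and was above background in all 16 readings, had log2 levels of 8.26, 9.22, 14.20 and 8.07 in plateau follicles, against 7.97, 11.84, 9.86 and 8.33 in growing follicles. In pair 3 the plateau follicle was 20.2-fold higher, in pair 2 it was 6.15-fold lower, and in pairs 1 and 4 the follicles differed by 1.22-fold and 1.2-fold in opposite directions. Its mean log2 ratio was 0.43 ± 2.89 (SD, n = 4 pairs; 95% confidence interval -2.53 to 3.40; limma, unadjusted p = 0.720), 1.45 without pair 2 and -0.87 without pair 3.

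Over the 8 follicles the levels of PLAU and PLAUR had the highest Pearson r of the 36 pairings of the 9 genes (Pearson r = 0.89, Spearman rho = 0.81, n = 8 follicles). Pearson r was 0.88 without the 2 follicles farthest from the median of PLAU. Next in size of r were PLAT with TFPI2 (r = 0.80), PLAU with SERPINE2 (r = -0.77) and SERPINE2 with F3 (r = 0.73). Without the 2 follicles farthest from the median of the gene named first, these became 0.38, 0.24 and 0.61. PLAT and PLAUR followed, with r = 0.72 and rho = 0.62. Their r was -0.09 without the 2 follicles farthest from the median of PLAT, so that this likeness rests on those follicles. These values are descriptive, and the follicles of a pair share their arrays.

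**Figure D2:**
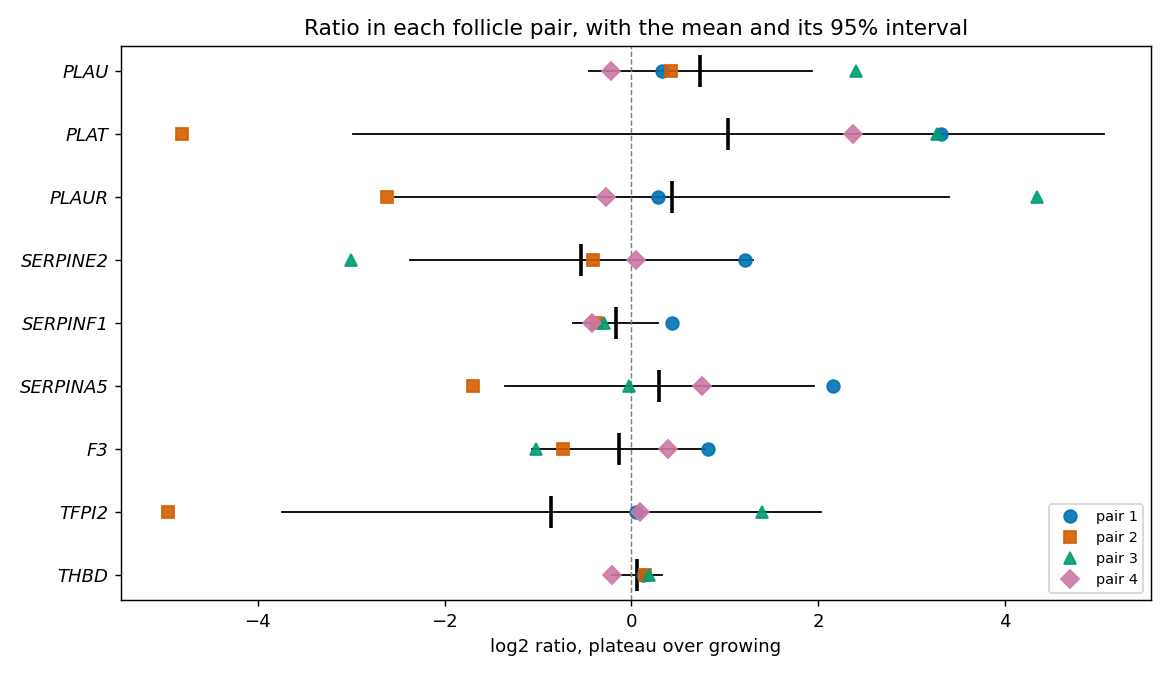
Log2 ratio of plateau over growing follicles (horizontal axis) for each of the 9 genes, with a symbol for each of the 4 follicle pairs, a black tick for their mean and a line for its 95% confidence interval from limma. All 9 intervals include 0; PLAT runs from -4.81 in pair 2 to 3.31 in pair 1, and TFPI2 stands at -4.96 in pair 2, where its plateau readings were not above background.

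Among the serpins, SERPINE2 was so abundant that 3 of its 8 plateau readings and 5 of its 8 growing readings lay at 65535, the highest value the scanner gives, so that differences among its highest follicles could not be measured. Its log2 levels were 15.98, 15.57, 12.96 and 15.98 in plateau follicles, against 14.76, 15.98, 15.96 and 15.93 in growing follicles. The plateau follicle of pair 3 stood below the other 7, and the growing follicle of pair 1 was next. In pair 3 both growing readings and in pair 1 both plateau readings were at the highest value. As a mean of 2 arrays, SERPINE2 was thus at least 8-fold lower in the plateau follicle of pair 3 and at least 2.33-fold higher in that of pair 1. The single arrays lay far apart, at log2 ratios of -1.60 and -4.40 in pair 3 and of 2.17 and 0.28 in pair 1. With readings at the highest value taken at 65535, the log2 ratios of pairs 3 and 1 were -3.00 and 1.22. The mean over all pairs was -0.54 ± 1.78 (SD, n = 4 pairs; 95% confidence interval -2.37 to 1.30; limma, unadjusted p = 0.483), and it was 0.28 without pair 3. SERPINA5, the gene of the protein C inhibitor, had log2 levels of 14.35, 13.32, 12.80 and 13.93 in plateau follicles, against 12.20, 15.01, 12.82 and 13.18 in growing follicles. It was 4.46-fold higher in the plateau follicle of pair 1 and 3.23-fold lower in that of pair 2, with a mean log2 ratio of 0.30 ± 1.60 (SD, n = 4 pairs; 95% confidence interval -1.35 to 1.95; limma, unadjusted p = 0.658) that was -0.32 without pair 1. SERPINF1 was dim, above background in 2 of 8 plateau and 5 of 8 growing readings. Its log2 levels were 8.12, 7.28, 7.64 and 7.43 in plateau follicles, against 7.69, 7.66, 7.93 and 7.86 in growing follicles, and its mean log2 ratio was -0.17 ± 0.40 (SD, n = 4 pairs; 95% confidence interval -0.62 to 0.29). It was -0.37 ± 0.07 (SD, n = 3 pairs) without pair 1, which did not meet the criterion (limma, unadjusted p = 0.0231, adjusted p = 0.755), and -0.08 to -0.12 without another pair.

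Of the coagulation genes, F3, which encodes tissue factor, was above background in all 16 readings and had no follicle far from the others. Its log2 levels were 9.06, 8.93, 8.49 and 9.46 in plateau follicles, against 8.23, 9.67, 9.51 and 9.06 in growing follicles. It was higher in the plateau follicle of pairs 1 and 4 and lower in that of pairs 2 and 3, by no more than 2.03-fold, with a mean log2 ratio of -0.14 ± 0.88 (SD, n = 4 pairs; 95% confidence interval -1.06 to 0.79). TFPI2 lay above background in both readings of 2 follicles, the growing follicle of pair 2 and the plateau follicle of pair 3, and in 1 further reading. Log2 levels of TFPI2 were 7.75, 7.28, 9.16 and 7.59 in plateau follicles, against 7.71, 12.24, 7.76 and 7.50 in growing follicles. In pair 2 the plateau follicle was not above background, which puts TFPI2 at least 24.3-fold higher in the growing follicle, when the lowest signal above background is taken as the limit. With the measured signals, which give -4.96 in pair 2, the mean log2 ratio was -0.86 ± 2.81 (SD, n = 4 pairs; 95% confidence interval -3.74 to 2.03; limma, unadjusted p = 0.477) and it was 0.51 without pair 2. THBD was above background in 5 of 8 plateau and 4 of 8 growing readings, and its log2 levels, 7.97, 7.78, 7.93 and 7.92 in plateau follicles against 7.85, 7.63, 7.74 and 8.12 in growing follicles, spanned less than those of the other genes. Its ratio was 0.06 ± 0.18 (SD, n = 4 pairs; 95% confidence interval -0.20 to 0.33), and its other probe, with 0.09 ± 0.28 (SD, n = 4 pairs), was above background in 3 of 8 readings in each phase.

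Exchanging the dyes left the large differences in place. For PLAT, the ratios of a pair on its 2 arrays differed from their mean by 0.23 to 0.50 log2 units, for PLAUR by at most 0.36 and for TFPI2 by at most 0.31, while the pairs themselves lay several units apart. It was at most 0.60 for the others except SERPINE2, with up to 1.40: in pair 3 its log2 ratio was -1.60 with the plateau follicle in Cy5 and -4.40 with it in Cy3, and in pair 1 it was 2.17 and 0.28. The ratios that the authors deposited gave means of 1.07 for PLAT, 0.75 for PLAU, 0.44 for PLAUR, -0.55 for SERPINE2 and -0.86 for TFPI2.

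**Figure D3:**
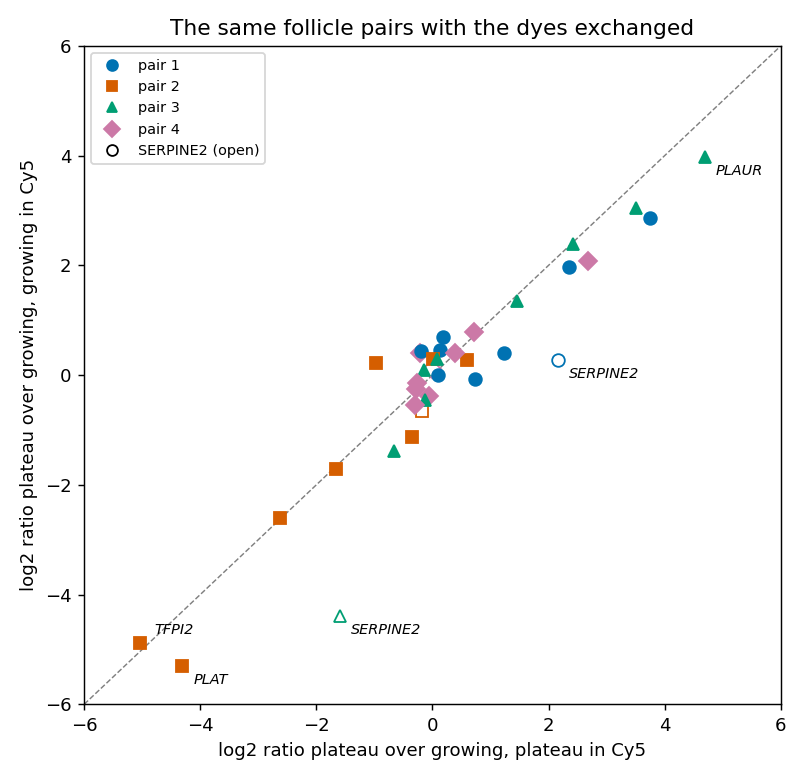
Log2 ratio of plateau over growing follicles on the array with the plateau follicle in Cy5 (horizontal axis) and on the array of the same pair with the growing follicle in Cy5 (vertical axis), for the 9 genes in the 4 pairs; the dashed line marks equal values. Most points lie near the line, and those of SERPINE2 (open symbols) in pair 1 (2.17 and 0.28) and pair 3 (-1.60 and -4.40) lie farthest from it.

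The follicles that set these ranges recurred from gene to gene. The plateau follicle of pair 3 had the highest PLAU and PLAUR levels, the second highest PLAT and TFPI2 levels and the lowest SERPINE2 level. The growing follicle of pair 2 had the highest PLAT, TFPI2, SERPINA5 and F3 levels and the second highest PLAUR level. Both were among the 3 follicles with the lowest CYP19A1, and they were alike in some other granulosa markers and differed in others. The plateau follicle of pair 3 had FSHR at 8.64, FOXL2 at 7.70 and HSD17B1 at 8.03. In the growing follicle of pair 2 these were close, at 8.43, 7.94 and 8.01. The plateau follicle of pair 2, also among the 3 with the lowest CYP19A1, had 9.75, 7.99 and 7.71. FOXL2 and HSD17B1 were each above background in 6 of 8 plateau and 8 of 8 growing readings, so their low levels lay near background. INHA, the alpha subunit of inhibin, was at 11.34 in the plateau follicle of pair 3, the lowest of its 8 levels. Its level in the growing follicle of pair 2 was among the highest. Those highest levels lay where SERPINE2 reached the scanner's highest value, so their order could not be read. INHBA was at 11.47 in that plateau follicle and 15.46 in that growing follicle, and AMH was at 8.06 and 11.61. In the plateau follicle of pair 3, markers of smooth muscle cells and fibroblasts had a mean log2 level of 12.08, the highest of the 8 follicles. It was 9.25 in the growing follicle of that pair. The markers were uneven. The largest log2 ratio in pair 3 was 6.12, for COL1A2, a collagen chain, with levels of 15.88 and 9.76. ACTA2 had 3.01, DES 0.76 and TAGLN 0.59, and MYH11 alone was below 0, at -0.70. Over all follicles the mean level of these markers ran over 8.88 to 12.08 in plateau and 9.12 to 10.25 in growing follicles. Leukocyte markers had 8.86 in the plateau follicle of pair 3 and 7.79 in its growing partner, within 7.63 to 8.86 in plateau and 7.68 to 7.94 in growing follicles. The plateau follicle of pair 2 was close, at 8.72. Over all pairs, 9 of 9 smooth muscle and fibroblast markers had mean log2 ratios above 0 (median 0.25, and 3.01 in pair 3), as did 8 of 9 leukocyte markers (median 0.38), of which LYZ, the gene of lysozyme, was at the criterion (0.61 ± 0.42, SD, n = 4 pairs) while above background in 5 of 8 plateau and 1 of 8 growing readings. The pairs differed in these lists. Smooth muscle and fibroblast markers had medians of -0.13, -0.49 and 0.52 in pairs 1, 2 and 4, and without pair 3 their median was -0.32, with 3 of 9 above 0. Without pair 3 the leukocyte markers had a median of 0.15, with 7 of 9 above 0. For the granulosa markers the median ratio was -0.64, with 0 of 7 above 0, from pair medians of 1.78, -0.21, -4.34 and 0.18, and without pair 3 it was 0.41, with 5 of 7 above 0. The median ratio was -0.09 for 6 theca markers, 0.005 for 9 endothelial markers, 0.15 for 5 red blood cell markers and -0.001 for 5 platelet markers. For 8 genes that respond to the LH surge it was -0.34, with a mean log2 level of 10.72 in the growing follicle of pair 2, the highest of the 8 follicles, and of 9.37 in its plateau partner. That growing follicle also had the highest mean levels of theca markers (9.43) and endothelial markers (8.55). The plateau follicle of pair 3 was next in both, at 9.36 and 8.43. For smooth muscle and fibroblast markers the growing follicle of pair 2, at 10.25, was below the plateau follicle of pair 3 alone. Apart from LYZ, none of these markers met the criterion, and the part of other cells in the values of the 9 genes was not tested.

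**Figure D4:**
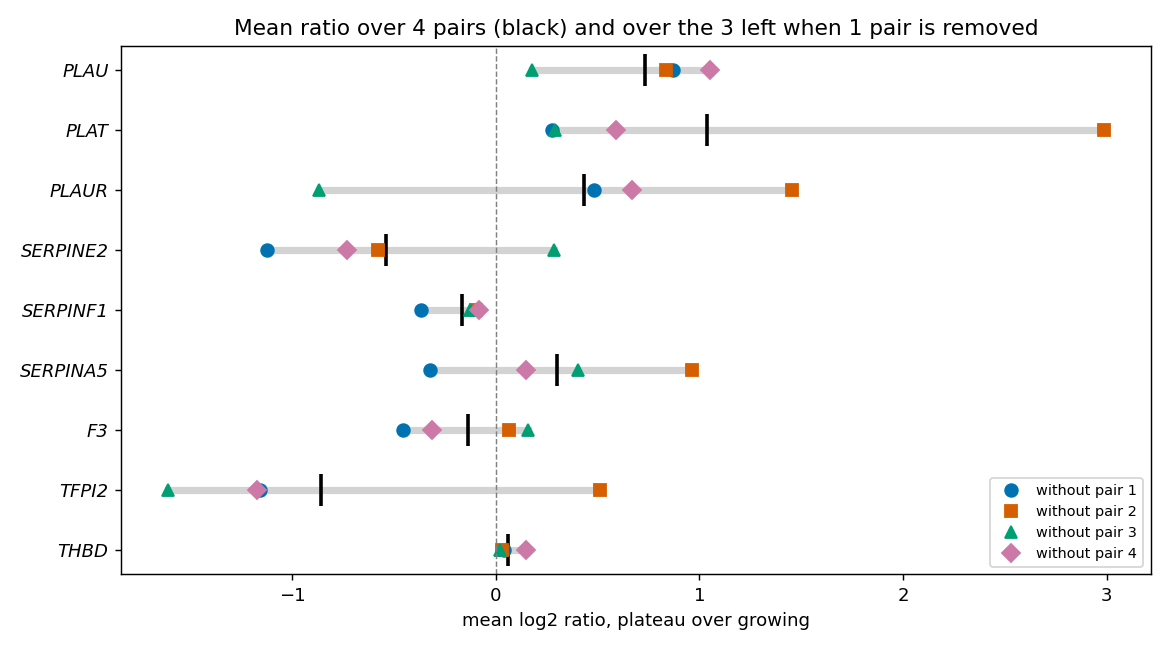
Mean log2 ratio of plateau over growing follicles (horizontal axis) over all 4 pairs (black tick) and over the 3 pairs left when 1 pair is removed (symbols), for each of the 9 genes. Removing pair 2 moves PLAT to 2.99 and TFPI2 to 0.51, and removing pair 3 moves PLAUR to -0.87 and SERPINE2 to 0.28.

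For the 5 genes above background in all 16 readings, the transcripts with the most similar levels over the 8 follicles were sought among 5953 genes whose mean log2 intensity reached 9. SERPINE2 was most like INHBA, which encodes the beta A subunit of inhibin and activin (r = 0.99, rho = 0.76, n = 8 follicles), and RNF34 (r = 0.95, rho = 0.52), but without the 2 follicles farthest from the median of SERPINE2 r was 0.75 with INHBA and 0.42 with RNF34, so that these likenesses rest largely on those follicles, and 7 of 16 readings of INHBA were at the scanner's highest value as well. PLAUR was most like CSRP3 (r = 0.99, and 0.93 without the 2 farthest follicles) and CTHRC1, a secreted protein of matrix remodelling (r = 0.97, and 0.68). PLAT was nearest to NLRX1 (r = 0.96, and 0.91) and ESYT1 (r = 0.96, and 0.86), SERPINA5 to KCTD5 (r = 0.93, and 0.91) and SYT11 (r = 0.92, and 0.85), and F3 to AFAP1L2 (r = 0.95, and 0.91) and NICN1 (r = 0.93, and 0.84). These correlations are a description of 8 follicles, picked as the highest of many.

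The other genes of both pathways were described from a list of 24 genes of the plasminogen system, of which 20 were measured, and 35 coagulation genes, all measured. In the plasminogen system 9 genes had mean log2 ratios above 0 and 11 below, with a median of -0.03, and in coagulation 20 lay above and 15 below, with a median of 0.02; the median of all probes was -0.002. None of these genes met the study's criterion, where 0.674% of all probes did, or passed an adjusted p-value of 0.05 (limma). An unadjusted p-value under 0.05 was found for 3 of them, against 2.63% of all probes. These 3, named after their values were seen, were SERPINF2, the plasmin inhibitor, at -0.37 ± 0.22 (SD, n = 4 pairs), MASP1, a protease of the complement lectin pathway, at 0.28 ± 0.17 (SD, n = 4 pairs), and SERPINC1, which encodes antithrombin, at 0.51 ± 0.44 (SD, n = 4 pairs). MASP1 was above background in 7 of 8 plateau and 2 of 8 growing readings, and its other 2 probes had 0.31 and 0.01. PLG, the gene of plasminogen itself, was above background in 1 of 8 readings in each phase. The largest mean ratios of the plasminogen list were those of A2M, a broad protease trap of plasma, at 0.79 ± 1.32 (SD, n = 4 pairs), SERPINB2, a further inhibitor of urokinase, at 0.76 ± 1.45 (SD, n = 4 pairs) with a second probe at 0.81, and IGF2R, a receptor that also binds plasminogen, at 0.72 ± 1.30 (SD, n = 4 pairs). For A2M and SERPINB2 the highest of the 8 levels lay in the plateau follicle of pair 3, at 10.65 and 15.99, with log2 ratios of 2.73 and 2.87 in that pair. The SERPINB2 level of 15.99 lay where SERPINE2 reached the scanner's highest value, so its ratio there may be too small. S100A10 and ANXA2, which form a plasminogen-binding complex at the cell surface and were chosen after their values were seen, were likewise highest in the plateau follicle of pair 3 and the growing follicle of pair 2. S100A10 had log2 levels of 10.30, 11.25, 15.36 and 9.12 in plateau follicles, against 11.25, 14.56, 10.66 and 11.32 in growing follicles, and ANXA2 had 11.01, 11.19, 13.19 and 9.50 against 10.63, 12.78, 10.92 and 11.08.

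In the coagulation list the largest mean ratios were those of F5, the gene of factor V, at 0.78 ± 1.49 (SD, n = 4 pairs), F2RL2, a receptor cut by thrombin, at -0.64 ± 2.07 (SD, n = 4 pairs) with a second probe at -0.79, and FGL2, a fibrinogen-like protein, at 0.59 ± 0.64 (SD, n = 4 pairs). F5 was at 10.74 in the plateau follicle of pair 3 and at 7.65 to 8.0 in the other plateau follicles, against 7.74 to 7.91 in growing follicles. F2RL2 had its highest level in the growing follicle of pair 2, at 11.85, against 8.20 in the plateau follicle of that pair.

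**Figure D5:**
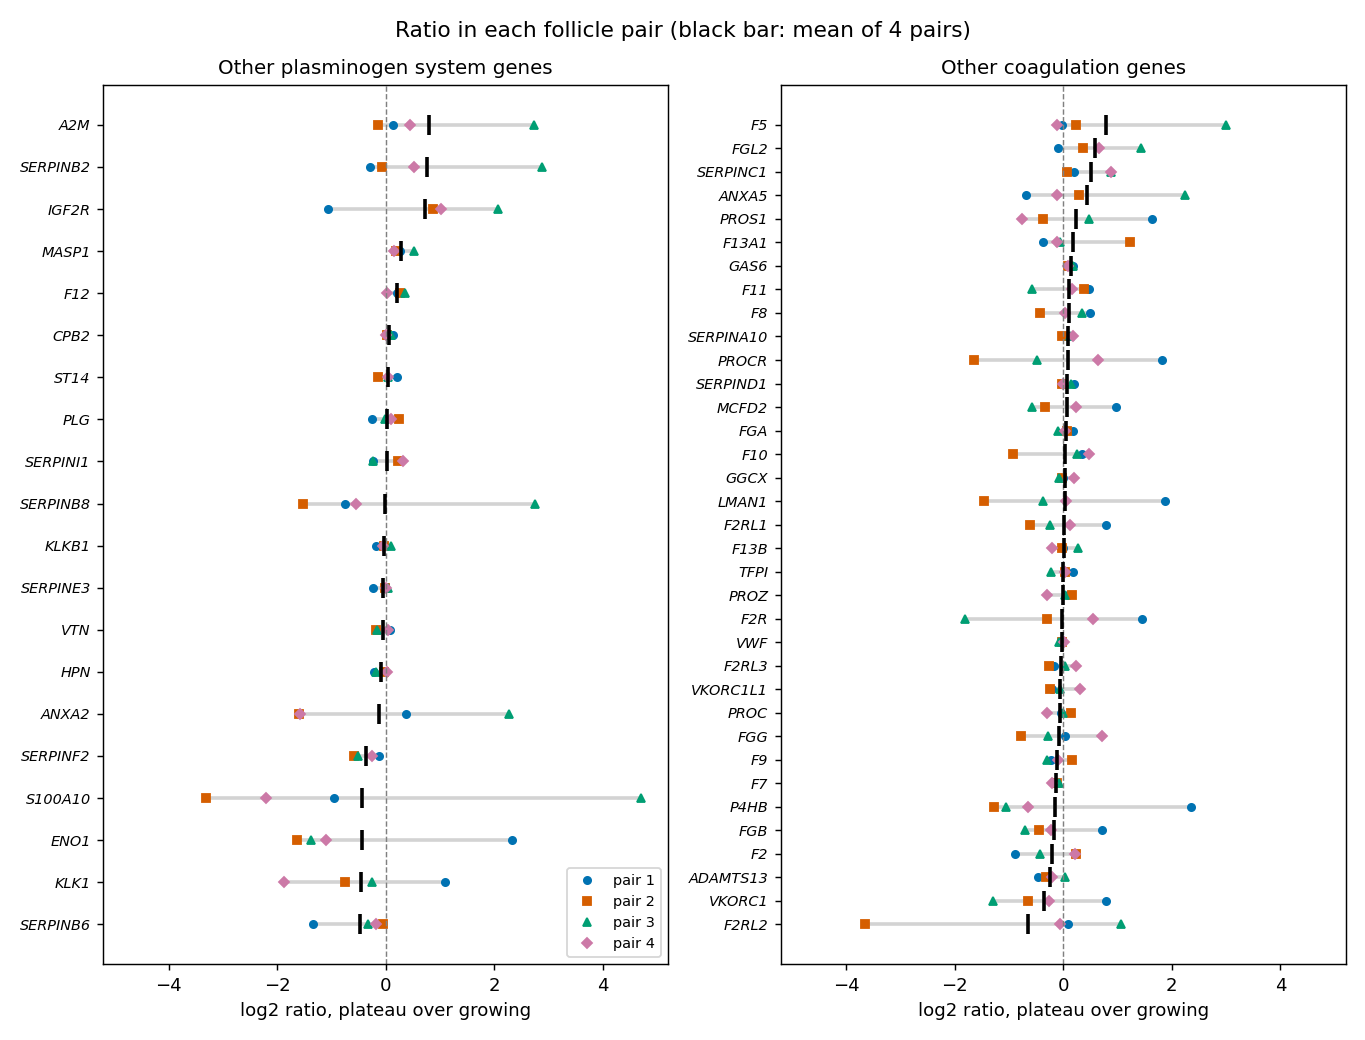
Log2 ratio of plateau over growing follicles (horizontal axis) for 20 other genes of the plasminogen system (left) and 35 other coagulation genes (right), ordered by their mean (black bar), with a symbol for each of the 4 pairs and a grey line over their range. The means lie between -0.64 and 0.79, and the widest ranges come from pairs 2 and 3, with S100A10 at -3.31 and 4.70.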

How the data were processed

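Granulosa cell RNA of 4 plateau and 4 growing follicles had been compared on 8 arrays that hold 4 dye-swapped pairs. The intensity values of each spot and its local background (medians over pixels) were deposited by the authors as scanned, without correction, after 12 to 30 spots per array were excluded by hand. The series table deposited by the authors holds log2 ratios of Cy5 over Cy3 after background subtraction, loess and quantile normalization, and served as an alternative. Here the background correction was normexp with an offset of 50, followed by loess and quantile normalization (limma 3.58.1, R 4.3.3). Ratios were turned to plateau over growing, averaged within pairs and tested against 0 with lmFit and eBayes, two-sided, with Benjamini-Hochberg adjustment over 43794 probes. Arrays at the same slide position were taken as a pair, from their titles; deviations from the slide mean correlated at 0.87 to 0.94 within positions and -0.47 to -0.14 between. Annotated symbols named 21790 probes, 1524 through a synonym. Tested on 23733 simulated probes with this spread among pairs, 79.0% of those changed by a log2 ratio of 1 and 94.0% of those changed by 2 met the fold and p thresholds of the criterion, and 0% and 36.0% passed an adjusted p-value of 0.05. These shares hold for a median SD among pairs of 0.43 and do not apply to the members, whose median SD was 1.60.

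The members, gene lists and tests were chosen with earlier results of these data known. Named by rule were all members, the 3 largest ratios of each pathway list, list genes at the criterion and the 2 most similar genes. Outside these rules, and with their values known, single granulosa, smooth muscle and fibroblast markers were named. So were PLG, SERPINF2, MASP1, SERPINC1, S100A10 and ANXA2. The number of arrays limits the precision.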

Additional observations from a re-analysis of the deposited data

Results flagged for a closer look

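Of 18 groups of 4 follicles, 3 held a follicle far from the others of its phase, where chance flags about 1 group in 20. That share does not apply here, since readings at the scanner's highest value (SERPINE2) or not above background (TFPI2) narrowed the ranges of the other follicles. SERPINE2 had a log2 level of 12.96 in the plateau follicle of pair 3, with the other plateau follicles between 15.57 and 15.98. It had 14.76 in the growing follicle of pair 1, with the other growing follicles between 15.93 and 15.98. TFPI2 had 12.24 in the growing follicle of pair 2, with the other growing follicles between 7.50 and 7.76.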

How the results depend on the processing

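The count of the 9 genes at the study's criterion was 0 under all alternatives that kept the 4 pairs, and 0 to 1 when a pair was left out, the 1 being PLAT without pair 2. Over all probes the count of 295 became 712 with the 8 arrays taken as independent, 668 with a dye term and the pair fitted as random block, 1036 and 835 on the slides with plateau and with growing follicles in Cy5 alone, and 337 to 1536 when a pair was left out (1536 without pair 1, 806 without pair 2). With no replicate block, the 8 follicle profiles compared as 2 groups of 4, it was 302, with 0 of the 9 genes. Of 124 values of single genes under alternatives, 111 kept their direction. On the slide with plateau follicles in Cy5 alone, SERPINE2 had 0.094, F3 0.15 and THBD -0.094. When a pair was left out, log2 ratios ran over 0.18 to 1.05 for PLAU, 0.28 to 2.99 for PLAT, -0.37 to -0.08 for SERPINF1, -0.87 to 1.45 for PLAUR, -1.12 to 0.28 for SERPINE2, -0.32 to 0.96 for SERPINA5, -0.46 to 0.16 for F3 and -1.61 to 0.51 for TFPI2, and the medians over -0.045 to 0.033 for the plasminogen list and -0.031 to 0.065 for the coagulation list. The cause was not tested. Under the filter on dim probes, 16166 probes and 5 of the 9 genes were left, so PLAU, SERPINF1, TFPI2 and THBD had no value there.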
